A study of Mus musculus with 9 samples.

Results

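Matrix metalloproteinases (MMPs) are zinc-dependent enzymes that cut collagens, laminins, fibronectin and other proteins around the cell, and the tissue inhibitors of metalloproteinases (TIMPs) bind their active sites and block them. The mRNA levels of 10 genes of this system were examined in mouse ovarian surface epithelial (MOSE) cells: the metalloproteinases Mmp2, Mmp3, Mmp9, Mmp10, Mmp11, Mmp13 and Mmp14 and the inhibitors Timp1, Timp2 and Timp3. They were taken as the probe sets that name 1 of these symbols and no other gene, which gave 22 of the 45101 probe sets on the array, 11 for metalloproteinases and 11 for inhibitors, and 10 of the 18194 genes that a probe set names alone. In MOSE-L cells, the late and malignant stage, Mmp2, Mmp14, Timp1 and Timp3 were lower and Mmp11 was higher than in the early, non-malignant MOSE-E cells. Timp1 lay just past the threshold for a call. The calls of Timp1 and of most Timp3 probe sets were lost when some single arrays were left out. Mmp14 was already lower at the intermediate stage, MOSE-I, whereas both Mmp2 probe sets fell between MOSE-I and MOSE-L.

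RNA was hybridised to 9 Affymetrix arrays, 3 for each stage of 1 series of cells that was taken from C57BL6 mice and transformed spontaneously in culture. MOSE-E cells were at passages 13, 14 and 15, MOSE-I cells at passages 63, 71 and 73, and MOSE-L cells at passages 136, 142 and 143, which are replicates 1, 2 and 3 of each stage. All cultures grew in the same medium with fetal bovine serum, insulin, transferrin and selenite. The cultures are heterogeneous and not clonal, and cells of the MOSE-I and MOSE-L stages form tumors in the peritoneal cavity of syngeneic mice, which MOSE-E cells do not. No stage had a second, independently derived cell series. The p-values therefore measure the spread between cultures of the same series, some of them at consecutive passages. In RNA from whole cultures, fewer cells of a type and less RNA per cell cannot be told apart.

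The values are MAS 5.0 signals, linear array intensities without a unit that the authors scaled to a trimmed mean of 500 per array. Levels are given as signals with the mean ± SD of 3 arrays. Differences are given as log2 changes of the signal plus 50, which understates changes of dim genes, since 32.4% of all signals lay under 50. A single limma model of all 9 arrays took in every probe set that exceeded 500 somewhere (13845 probe sets, 7952 genes), and a probe set was called at a Benjamini-Hochberg adjusted p of at most 0.05 and a log2 change of at least 1 in either direction. A gene was represented by its probe set of highest mean signal. Of the 22 probe sets, 18 passed this filter and 4 did not, namely both of Mmp9, that of Mmp10 and 1 of 6 for Timp2. Signals of different probe sets are not comparable as amounts of mRNA, so only the stages were compared. Array medians ran from 93.2 to 130 and the number of arrays limits the precision. MOSE-L replicate 3 correlated with the other MOSE-L arrays at r = 0.889 and 0.907 over log2 signals. Its ratio of 3' to 5' Actb signal was 1.83, against 1.12 to 1.45 on the other 8 arrays. The same ratio for Gapdh was not raised, at 0.727 against 0.735 to 0.81.

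The labelled cell type was checked against markers. All 9 markers of ovarian surface epithelium and mesothelium, among them Krt8, Krt18, Krt19, Wt1 and Msln, passed the filter, with a summed signal of 69812 to 74146 on MOSE-E arrays, 51944 to 68062 on MOSE-I arrays and 44295 to 64556 on MOSE-L arrays. Of them 5 were called lower and 0 higher between MOSE-L and MOSE-E by limma, Krt7 (log2 change -4.28), Lrrn4 (-2.23), Krt8 (-1.47), Bnc1 (-1.38) and Krt19 (-1.11), while Wt1 changed by 0.94 (adjusted p = 0.0327), short of a call. No marker of neutrophils, endothelium or granulosa cells passed. The granulosa cell marker Foxl2 came closest, with 204 to 278 on MOSE-E arrays, 286 to 330 on MOSE-I arrays and 419 to 491 on MOSE-L arrays. Of 9 macrophage markers Cd14 and Csf1r passed, and the pan-leukocyte marker Ptprc reached at most 51.9. Of 9 fibroblast and stromal markers 6 passed, and the summed signal of the list was 41341 to 107500 on MOSE-E arrays, 11903 to 50445 on MOSE-I arrays and 21756 to 29108 on MOSE-L arrays. The stromal markers did not move as a group: between MOSE-L and MOSE-E, Acta2 (-5.70), Tagln (-7.72) and Cdh11 (-6.12) were called lower and Dcn (2.19) higher. Pdgfra changed by 1.53 (adjusted p = 0.109) and Pdgfrb by -0.27 (adjusted p = 0.594), and Thy1, Lum and Postn stayed under the filter. The largest parts of the stromal sum were Acta2 (mean 43661) and Tagln (21620) in MOSE-E cells and Dcn (22527) in MOSE-L cells. Krt7, Tagln and Cdh11 passed the filter only through MOSE-E and MOSE-I arrays. Without the filter their adjusted p was 0.000232, 0.000224 and 5.56e-05. The summed signals of the epithelial and of the stromal list were both lower on every MOSE-L array than on any MOSE-E array, and the part of either in the results below was not tested.

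Most MMPs are secreted as inactive precursors. Collagenases such as Mmp13 open fibrillar collagen, gelatinases (Mmp2, Mmp9) degrade denatured collagen and collagen IV of basement membranes, and stromelysins (Mmp3, Mmp10) act on a broad range of matrix proteins and on other pro-MMPs. Mmp14 (MT1-MMP) stays anchored in the plasma membrane, where, with a bound Timp2 molecule as a bridge, it activates pro-Mmp2. In serous ovarian cancer these enzymes have been studied for attachment to and spread over the peritoneum.

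The promoters are shown because the members fall into distinct kinds by their letters. RefSeq promoter entries (build GRCm38.p6, 250 bases before to 50 after the annotated start) were found for 8 of the 10 genes, all but Mmp2 and Mmp9. The AP-1 element (TGAGTCA or, on the other strand, TGACTCA) and the TATA element (TATAAA or TTTATA) were each present in the same 3 promoters, those of Mmp3, Mmp10 and Mmp13, whereas 5.2% and 13.6% of the 32851 promoters in the table held them. The GC box (GGGCGG or CCGCCC) was present in the other 5, Mmp11, Mmp14, Timp1, Timp2 and Timp3, against 35.7% of all promoters. The Ets core element (AGGAAG or CTTCCT) was present in Mmp3, Mmp13, Mmp14, Timp1 and Timp3, against 35.4% of all promoters. The 120 bases before the start are given 5' to 3' on the strand of the gene for Mmp3, Mmp10, Mmp13 and, for comparison, for 3 genes whose signals differed between MOSE-E and MOSE-L, with the searched elements in capitals.
Mmp13, chr9:7272394-7272513, plus strand: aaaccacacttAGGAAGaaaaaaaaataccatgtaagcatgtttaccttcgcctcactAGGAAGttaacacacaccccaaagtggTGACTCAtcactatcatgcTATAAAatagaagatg
Mmp3, chr9:7445702-7445821, plus strand: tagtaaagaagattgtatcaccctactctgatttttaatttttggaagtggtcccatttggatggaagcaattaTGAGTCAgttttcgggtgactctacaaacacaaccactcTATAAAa
Mmp10, chr9:7502222-7502341, plus strand: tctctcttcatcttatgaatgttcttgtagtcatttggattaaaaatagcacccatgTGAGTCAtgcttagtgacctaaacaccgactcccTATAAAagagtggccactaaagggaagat
Mmp14, chr14:54431478-54431597, plus strand: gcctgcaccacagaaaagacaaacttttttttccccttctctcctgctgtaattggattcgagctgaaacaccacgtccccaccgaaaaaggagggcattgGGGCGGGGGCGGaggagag
Mmp11, chr10:75932503-75932622, minus strand: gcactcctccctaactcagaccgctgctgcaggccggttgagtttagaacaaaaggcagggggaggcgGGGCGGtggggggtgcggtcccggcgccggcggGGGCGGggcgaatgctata
Timp3, chr10:86300292-86300411, plus strand: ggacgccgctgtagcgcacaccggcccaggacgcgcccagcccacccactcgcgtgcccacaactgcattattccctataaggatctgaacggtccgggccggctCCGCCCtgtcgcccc
Counting back from the start, the AP-1 element begins at base -35 in Mmp13, -46 in Mmp3 and -63 in Mmp10, and a TATA element follows it toward the start in each, at -16, -7 and -29. In Mmp14 a pair of GC boxes abut at -19 and -13. A match describes letters and is no evidence of binding. Mmp13, Mmp3 and Mmp10 belong to a cluster of 10 MMP genes on chromosome 9, in the order Mmp13, Mmp12, Mmp1b, Mmp3, Mmp1a, Mmp10, Mmp8, Mmp27, Mmp20, Mmp7. Of these, Mmp1a, Mmp1b, Mmp7, Mmp8, Mmp12 and Mmp20 had probe sets that all stayed under the filter, with a highest signal of 136 among them (Mmp8). The other members lie apart, Mmp2 on chromosome 8, Mmp9 on 2, Mmp11 and Timp3 on 10, Mmp14 on 14, Timp2 on 11 and Timp1 on X. Timp1 and Timp3 overlap the synapsin genes Syn1 and Syn3 in the annotation, and their probe sets name the inhibitor alone.

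**Figure D1:**
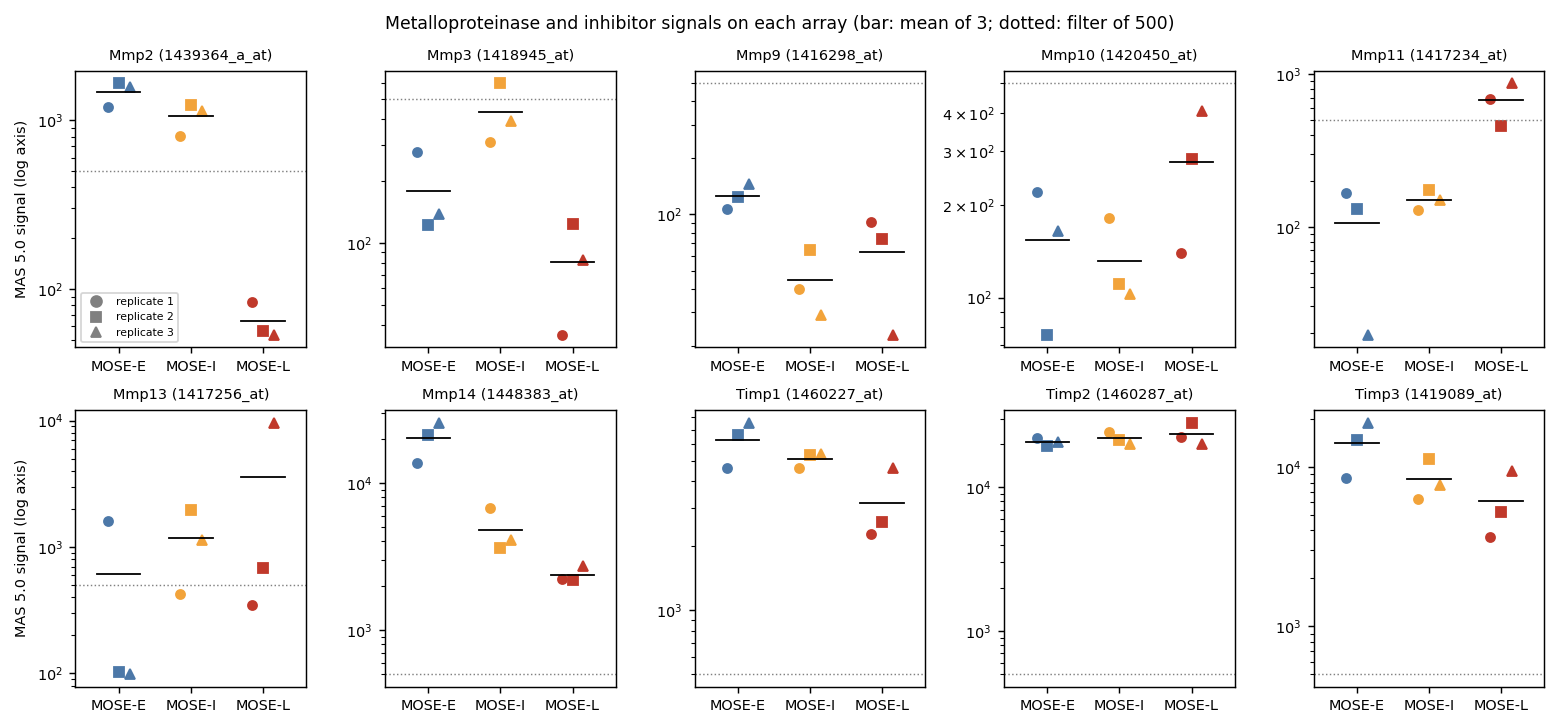
Signal of each of the 10 genes on each of the 9 arrays, by its probe set of highest mean signal, on a log axis that differs between panels. Blue, orange and red points are MOSE-E, MOSE-I and MOSE-L arrays, the black bar is the mean of 3 and the dotted line is the filter of 500. Mmp2 drops at MOSE-L (53.3 to 83.8 against 1203 to 1656 in MOSE-E), Mmp14 drops at MOSE-I, Mmp11 is high on the 3 MOSE-L arrays, and Mmp13 spreads from 98.7 to 9658.

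Between MOSE-L and MOSE-E, 10 member probe sets were called lower (2 of Mmp2, 3 of Mmp14, 1 of Timp1 and 4 of Timp3) and 1 was called higher (Mmp11). Over all tested probe sets 7.37% were called lower and 7.63% higher, and by gene 7.49% and 8.11%. Between MOSE-I and MOSE-E the 3 probe sets of Mmp14 were called lower and 0 were called higher by limma (Mmp3 had an unadjusted p of 0.0222), with 3.76% of all probe sets called lower and 1.97% higher, and by gene 3.61% and 2.29%. Between MOSE-L and MOSE-I the 2 probe sets of Mmp2 and that of Mmp3 were called lower and that of Mmp11 higher. The share of all probe sets was 5.85% lower and 8.05% higher there, and by gene 6.04% and 7.38%.

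Without the filter, so that all 22 probe sets count, their median log2 change between MOSE-L and MOSE-E was -0.75, beside 0.03 over all 45037 probe sets that are no controls. Timp2 holds 6 of the 11 inhibitor probe sets, so the families are better read by gene: with each gene by its probe set of highest mean signal, the median was -0.69 over the 7 metalloproteinase genes and -1.02 over the 3 inhibitor genes, beside 0.03 over all 18193 genes. These medians are the values of Mmp9, which stayed under the filter, and of Timp1. The families did not move as a whole. Of the metalloproteinase genes 3 lay above 0 and 4 below (-3.74 to 2.34), and of the inhibitor genes 1 above and 2 below. The corresponding medians of the 22 were -0.20 between MOSE-I and MOSE-E and -0.29 between MOSE-L and MOSE-I, beside -0.04 and 0.08 over all. By gene, the medians for these steps were -0.12 and 0.21 over metalloproteinases and -0.26 and -0.53 over inhibitors. Between MOSE-L and MOSE-I, 4 metalloproteinase genes lay above 0 and 3 below. The probe sets of a gene share its transcript, so the counts and medians by probe set do not stand for 22 independent readings. Centring each array on its median moved the median of all tested genes by 0.136 between MOSE-I and MOSE-E and by -0.176 between MOSE-L and MOSE-I. It turned the split of all calls between MOSE-L and MOSE-I from 1115 higher and 810 lower to 801 and 1310, and between MOSE-I and MOSE-E from 273 and 520 to 459 and 437. The member genes named as changed kept their direction under it.

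**Figure D2:**
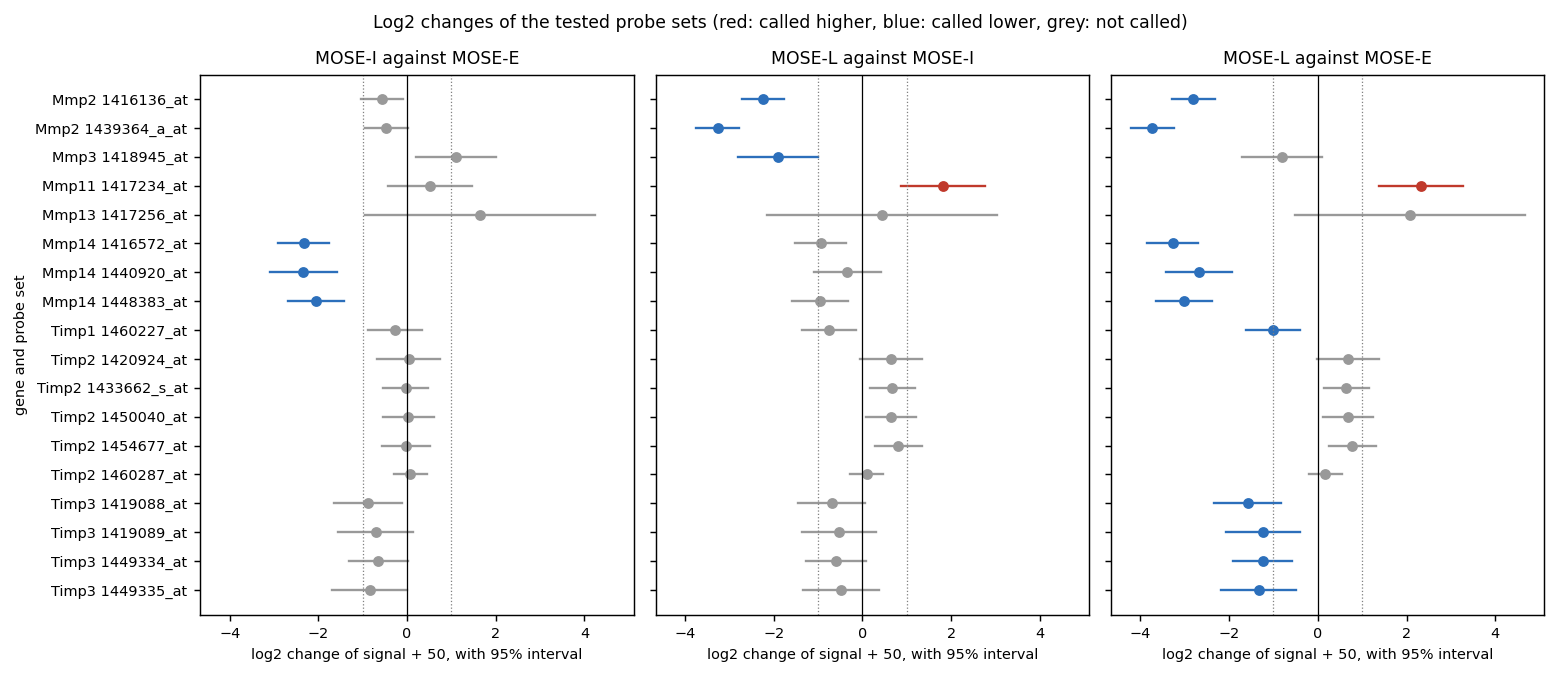
Log2 change of signal + 50 (points) with 95% intervals (bars) for the 18 tested probe sets in the 3 comparisons. Red marks a call of higher, blue of lower and grey no call, and dotted lines stand at a change of 1 either way. Mmp14 is blue in the comparisons with MOSE-E, Mmp2 in those with MOSE-L, and the bars of Mmp13 are the widest, from -0.52 to 4.67 between MOSE-L and MOSE-E.

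Mmp14, the membrane-anchored activator of pro-Mmp2, fell early. Its probe set 1448383_at gave signals of 13616, 21074 and 25786 on the MOSE-E arrays. The MOSE-I arrays gave 6773, 3599 and 4078, and the MOSE-L arrays 2216, 2187 and 2736. No array of a later stage reached any array of an earlier one, and MOSE-E replicate 1 was the lowest of its stage. The means were 20159 ± 6137, 4817 ± 1711 and 2380.0 ± 309, a ratio of 4.19 between MOSE-E and MOSE-I and of 8.47 between MOSE-E and MOSE-L. The log2 change was -2.06 ± 0.29 (SE) for MOSE-I against MOSE-E (adjusted p = 0.00362) and -3.01 ± 0.29 for MOSE-L against MOSE-E (adjusted p = 7.78e-05). The step from MOSE-I to MOSE-L was -0.95 (95% interval -1.58 to -0.33, adjusted p = 0.0325), short of the log2 change of 1 that a call needed.

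The other Mmp14 probe sets moved alike. 1416572_at had mean signals of 10546 ± 2930 at MOSE-E, then 2059 ± 680 at MOSE-I (log2 change -2.34, adjusted p = 0.00162) and 1019 ± 63.0 at MOSE-L (-3.27, adjusted p = 2.38e-05). 1440920_at fell from 1949 ± 753 to 333 ± 116 (-2.34, adjusted p = 0.0047) and 254 ± 95.4 (-2.68, adjusted p = 0.000468). This last probe set passed the filter only through MOSE-E arrays. Without the filter its adjusted p was 0.0074 for MOSE-I and 0.000697 for MOSE-L, each against MOSE-E. Between MOSE-L and MOSE-I the change of 1416572_at was -0.94 (adjusted p = 0.0257) and that of 1440920_at was -0.34 (adjusted p = 0.469), with overlapping arrays only for the latter. With arrays centred on their medians, 1448383_at and 1416572_at were called lower at this step too (-1.13, adjusted p = 0.0157, and -1.11, adjusted p = 0.0124).

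Mmp2, the gelatinase that Mmp14 activates, fell late. Its probe set 1439364_a_at gave 1203, 1656 and 1568 on the MOSE-E arrays and 806, 1228 and 1140 on the MOSE-I arrays. The MOSE-L arrays gave 83.8, 56.0 and 53.3. The MOSE-E and MOSE-I arrays overlapped, and every MOSE-L signal was far under those of the other stages, at most 83.8 against at least 806. The means were 1476 ± 240.0, 1058 ± 222 and 64.4 ± 16.9. The log2 change was -0.47 ± 0.22 (SE) for MOSE-I against MOSE-E (adjusted p = 0.18), -3.27 ± 0.22 for MOSE-L against MOSE-I (adjusted p = 2.48e-05) and -3.74 ± 0.22 for MOSE-L against MOSE-E (adjusted p = 3.68e-06). The probe set passed the filter only through MOSE-E and MOSE-I arrays. Without the filter the adjusted p of the MOSE-L change was 2.43e-05 against MOSE-I and 4.44e-06 against MOSE-E. The MOSE-E mean was 22.9 times the MOSE-L mean, and the change on the log2 scale corresponds to a fold of 13.3, because the MOSE-L signals were close to the added 50.

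The other Mmp2 probe set, 1416136_at, gave 1115, 1551 and 1417 on the MOSE-E arrays, 735, 978 and 1000 on the MOSE-I arrays and 154, 192 and 112 on the MOSE-L arrays. Here no array of a stage overlapped with another stage. Its log2 change was -2.81 ± 0.22 between MOSE-L and MOSE-E (adjusted p = 1.95e-05) and -2.24 ± 0.22 between MOSE-L and MOSE-I (adjusted p = 0.000128). For the earlier step, MOSE-I against MOSE-E, it was -0.56 ± 0.22 (adjusted p = 0.112). 1416136_at also passed the filter only through MOSE-E and MOSE-I arrays. Without the filter the adjusted p of its MOSE-L change was 2.5e-05 against MOSE-E and 0.000198 against MOSE-I. The ratio of mean signals between MOSE-E and MOSE-L cells was 8.92 here, so the probe sets share the direction and the stage of the fall and differ in its size.

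Mmp9, the other gelatinase, was dim throughout. Its probe set 1416298_at gave 107, 123 and 145 in MOSE-E, 40.0, 64.8 and 29.1 in MOSE-I and 91.0, 74.2 and 22.8 in MOSE-L cells, so the MOSE-E arrays lay above all others. Its probe set 1448291_at gave 2.97 to 39.9 over the 9 arrays with overlapping stages. Neither reached the filter, and in a fit without it neither was called in any comparison (1416298_at, MOSE-L against MOSE-E, log2 change -0.69, adjusted p = 0.244).

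Mmp13, a collagenase, varied more between cultures of a stage than between stages. It gave 1620, 102 and 98.7 on the MOSE-E arrays, 425, 1974 and 1131 on the MOSE-I arrays and 345, 686 and 9658 on the MOSE-L arrays. MOSE-E replicate 1 stood far above the other MOSE-E arrays and MOSE-L replicate 3 far above the other MOSE-L arrays, and all stages overlapped. The log2 change was 2.07 ± 1.18 (SE) between MOSE-L and MOSE-E (adjusted p = 0.212), 1.64 for the MOSE-I against the MOSE-E arrays (adjusted p = 0.374) and 0.44 between MOSE-L and MOSE-I (adjusted p = 0.8). Without MOSE-L replicate 3 the MOSE-L against MOSE-E value was 0.68 (adjusted p = 0.651), and without MOSE-E replicate 1 it was 3.23 (adjusted p = 0.0647). MOSE-L replicate 3 correlated with its stage at 0.889 and 0.907 and MOSE-E replicate 1 at 0.951 and 0.955, each lower than the remaining pair of its stage (0.934 and 0.986). MOSE-I replicate 1, the lowest Mmp13 array of its stage, was likewise apart (0.939 and 0.947, against 0.985). The part of this in the Mmp13 signal was not tested. MOSE-L replicates 2 and 3 were taken at passages 142 and 143.

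The stromelysin Mmp3 was highest in MOSE-I cells. It gave 278, 122 and 137 on the MOSE-E arrays, 309, 598 and 393 on the MOSE-I arrays and 35.6, 123 and 82.5 on the MOSE-L arrays. The MOSE-I arrays did not overlap with either other stage, and MOSE-E and MOSE-L arrays overlapped. From MOSE-I to MOSE-L it fell by 1.91 on the log2 scale (SE 0.41, adjusted p = 0.0103). MOSE-I against MOSE-E gave a log2 change of 1.10 ± 0.41 (adjusted p = 0.105), and 0.0451 was the adjusted p when only the 6 arrays of those stages were fitted. Between MOSE-L and MOSE-E it was -0.81 (adjusted p = 0.166). It passed the filter through 1 array, MOSE-I replicate 2 at 598. Without the filter the adjusted p of its fall was 0.0113, and with the filter set on the highest stage mean, 434, Mmp3 was not tested.

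Mmp10, the other stromelysin, stayed under the filter. It gave 222, 75.6 and 165 on the MOSE-E arrays, 182, 110 and 103 on the MOSE-I arrays and 139, 283 and 407 on the MOSE-L arrays. The stages overlapped, and without a filter the log2 change between MOSE-L and MOSE-E was 0.66 (adjusted p = 0.393).

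Mmp11 (stromelysin-3), which leaves the secretory pathway in an active form after cleavage by furin, was the member called higher. It gave 166, 130 and 19.5 on the MOSE-E arrays and 128, 173 and 149 on the MOSE-I arrays. The MOSE-L arrays gave 690, 459 and 873, each above every array of the other stages. The means were 105 ± 76.3, 150.0 ± 22.5 and 674 ± 207. The log2 change was 2.34 ± 0.43 (SE) between MOSE-L and MOSE-E (adjusted p = 0.00376) and 1.82 ± 0.43 between MOSE-L and MOSE-I (adjusted p = 0.0144). MOSE-I and MOSE-E arrays overlapped, with a change of 0.52 (adjusted p = 0.451). Mmp11 passed the filter through MOSE-L replicates 1 and 3. Without the filter the adjusted p was 0.00448 against MOSE-E and 0.0218 against MOSE-I.

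Among the inhibitors, Timp1, a soluble inhibitor of most secreted MMPs, was lower in MOSE-L cells. It gave 4626, 6605 and 7558 on the MOSE-E arrays, 4641, 5296 and 5401 on the MOSE-I arrays and 2279, 2570 and 4643 on the MOSE-L arrays. MOSE-L replicate 3 lay at the level of MOSE-E replicate 1, so the stages overlapped. The log2 change was -1.02 ± 0.28 (SE) between MOSE-L and MOSE-E (adjusted p = 0.0221), just past the threshold of 1. Between MOSE-L and MOSE-I it was -0.75 (adjusted p = 0.0638), and between MOSE-I and MOSE-E it was -0.26 (adjusted p = 0.554). The Timp1 call between MOSE-L and MOSE-E was lost without MOSE-E replicate 2 (adjusted p = 0.0771), MOSE-E replicate 3 (0.0962), MOSE-L replicate 1 (0.0572) or MOSE-L replicate 2 (0.0608).

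Timp3, which binds the matrix and also inhibits ADAM and ADAMTS proteases, was called lower between MOSE-L and MOSE-E by all 4 of its probe sets. The probe set 1419089_at gave 8524, 14870 and 19062 on the MOSE-E arrays, 6331, 11285 and 7678 on the MOSE-I arrays and 3621, 5249 and 9498 on the MOSE-L arrays. MOSE-E replicate 1 and MOSE-L replicate 3 overlapped here and for 1449335_at, whereas MOSE-E and MOSE-L arrays were apart for 1449334_at and 1419088_at. The log2 changes between MOSE-L and MOSE-E were -1.24 for 1419089_at (adjusted p = 0.0354), -1.33 for 1449335_at (adjusted p = 0.0286), -1.25 for 1449334_at (adjusted p = 0.0137) and -1.58 for 1419088_at (adjusted p = 0.00824). Timp3 values for MOSE-I against MOSE-E ran from -0.88 to -0.65 and for MOSE-L against MOSE-I from -0.70 to -0.49, and none was called. The 1419088_at call held when any single array was left out, while 1419089_at, 1449335_at and 1449334_at lost theirs without MOSE-E replicate 2 (adjusted p = 0.106, 0.0919 and 0.0562), without MOSE-E replicate 3 (0.138, 0.115 and 0.0654) or without MOSE-L replicate 1 (0.098, 0.0783, and a change of -0.96 for 1449334_at). Without MOSE-L replicate 2, Timp3 1419089_at and 1449335_at lost theirs as well (0.0798 and 0.0723), and 1419089_at also without MOSE-I replicate 3 (0.0524).

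Timp2, which inhibits MMPs and also bridges Mmp14 and pro-Mmp2 at the cell surface, was not called in any comparison. The probe set 1460287_at gave 22197, 19529 and 20794 on the MOSE-E arrays, 24169, 21540 and 20096 on the MOSE-I arrays and 22480, 28294 and 20006 on the MOSE-L arrays, with all stages overlapping. Its log2 change between MOSE-L and MOSE-E was 0.17 (95% interval -0.21 to 0.54, adjusted p = 0.499). The probe set 1454677_at gave 17331, 15588 and 12205 on the MOSE-E arrays, 10161, 18585 and 16488 on the MOSE-I arrays and 23502, 30880 and 23186 on the MOSE-L arrays, which lay above all others. Its log2 change was 0.78 (95% interval 0.24 to 1.32, adjusted p = 0.0372) between MOSE-L and MOSE-E and 0.81 (adjusted p = 0.0335) between MOSE-L and MOSE-I, past the p but under the log2 change of 1.

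The remaining tested Timp2 probe sets, 1433662_s_at, 1450040_at and 1420924_at, gave changes of 0.65, 0.67 and 0.68 between MOSE-L and MOSE-E (adjusted p = 0.0594, 0.0753 and 0.139). Thus 4 probe sets of Timp2 had higher mean signals in MOSE-L cells at a ratio of 1.57 to 1.72 and 1 by a ratio of 1.13, and the probe sets disagree on the size. Between MOSE-I and MOSE-E all 5 lay between -0.03 and 0.07. The sixth, 1437081_at, stayed between 7.64 and 80.6 on the 9 arrays.

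**Figure D3:**
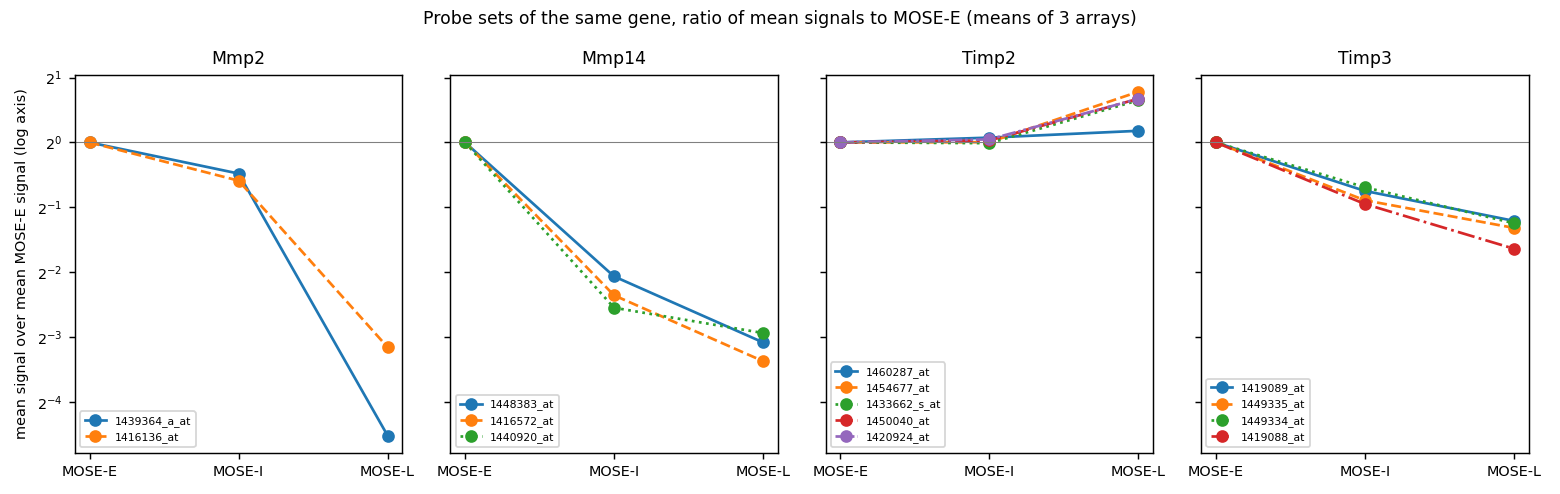
Mean signal of each tested probe set divided by its own MOSE-E mean (log axis, means of 3 arrays) for the 4 genes with several tested probe sets. The 2 probe sets of Mmp2 part at MOSE-L (ratios of 0.0436 and 0.112), the 3 of Mmp14 fall together at MOSE-I (0.171 to 0.239), those of Timp3 decline over both steps, and 1460287_at of Timp2 lies below the other 4 at MOSE-L.

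For each gene called in any comparison, the genes with the most similar course over the 9 arrays were listed among 7951 others, by the Pearson correlation of log2 signals. The arrays fall into 3 stages and share them across genes, so these values describe likeness only. The genes closest to Mmp2 were Col1a2, a chain of collagen I (r = 0.996), Armcx2 (0.993) and the lysophosphatidic acid receptor gene Lpar1 (0.991). Closest to Mmp14 were the guidance factor gene Slit2 (0.989), the mesenchymal cadherin gene Cdh11 (0.984) and Arhgap24 (0.981). Cdh11 is among the stromal markers above. Timp1 was closest to Lims1 (0.971), Dcun1d2 (0.961) and Lox, a collagen crosslinking enzyme (0.960). Timp3 was closest to Simc1 (0.973), Dyrk2 (0.943) and Styk1 (0.936). Mmp11 was closest to Tcp11l2 (0.986), Spata2 (0.960) and Unc50 (0.955), and Mmp3 to Gpn1 (0.986), Gtf2h4 (0.959) and 1600012H06Rik (0.951).

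Other genes of proteolysis around the cell were taken from lists by role, and the median log2 change over all 7952 genes was 0.03 between MOSE-L and MOSE-E, 0.03 between MOSE-I and MOSE-E and -0.02 between MOSE-L and MOSE-I. Of 16 other MMP genes, 11 had a probe set and 2 passed the filter, neither called. The membrane-linked Mmp17 had mean signals of 476 ± 155, 285 ± 200.3 and 179 ± 175 (log2 change between MOSE-L and MOSE-E -1.45, adjusted p = 0.1). Mmp17 passed the filter through 1 MOSE-E array, and without the filter the adjusted p was 0.179. Of 8 other MMP inhibitors none passed. Reck, a membrane-anchored inhibitor, gave signals of 84.2 to 259 with a mean of 167.

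Of 12 activators and inducers of MMPs, 10 had a probe set and 6 passed, with 1 called higher and 2 lower between MOSE-L and MOSE-E (median -0.50; all genes 8.11% and 7.49%) and 3 lower between MOSE-I and MOSE-E (median -0.72; all genes 3.61%). The proprotein convertases Pcsk5 and Pcsk6, which cut precursor proteins, fell in MOSE-L cells, with log2 changes of -2.63 (adjusted p = 0.00424) and -1.65 (adjusted p = 0.0053) against MOSE-E. In MOSE-I cells the changes were already -2.91 and -1.81 (adjusted p = 0.00862 and 0.0107). Pcsk5 and Pcsk6 passed the filter only through MOSE-E arrays, 1 and 2 of them, and without the filter the adjusted p of the MOSE-L against MOSE-E change was 0.000616 and 0.00613. Plat, the tissue plasminogen activator, rose by 1.74 between MOSE-L and MOSE-E (adjusted p = 0.00758) and by 1.36 between MOSE-L and MOSE-I (adjusted p = 0.0238). Between MOSE-L and MOSE-I Plat was the 1 gene of the list called (median 0.22; 7.38% of all genes higher).

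Of 8 docking and uptake receptors, 7 had a probe set and 5 passed, with 2 called lower between MOSE-L and MOSE-E (median -0.38; all genes 7.49%). Cav1, the main protein of caveolae, fell by 1.86 (adjusted p = 0.00025) and Cd44, a hyaluronan receptor that can hold MMPs at the cell surface, by 1.38 (adjusted p = 0.00831). In the list, 1 gene was called lower between MOSE-I and MOSE-E (median -0.96; all genes 3.61%), and 1 higher and 1 lower between MOSE-L and MOSE-I (median 0.51; all genes 7.38% and 6.04%).

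Of 8 ADAM proteases, 6 passed and 1 was called lower between MOSE-L and MOSE-E (median -0.15, all genes 7.49%), Adam12, which fell by 2.20 (adjusted p = 0.0052). Adam12 passed the filter only through 5 MOSE-E and MOSE-I arrays, and without the filter the adjusted p was 0.00897. The ADAM list held 1 gene called lower between MOSE-I and MOSE-E (median -0.27; all genes 3.61%), and 1 called higher and 1 lower between MOSE-L and MOSE-I (median 0.06; all genes 7.38% and 6.04%). Of 11 ADAMTS proteases, which cut proteoglycans and procollagens, 5 of 10 with a probe set passed. Between MOSE-L and MOSE-E 2 were called higher and 1 lower (median 0.38; all genes 8.11% and 7.49%). Adamts9 rose by 3.16 (adjusted p = 0.000319) and Adamts4 by 1.63 (adjusted p = 0.00827), and Adamts5 fell by 2.84 (adjusted p = 0.00146). Adamts9 and Adamts4 passed the filter only through MOSE-L arrays, 3 and 1 of them. Without the filter the adjusted p was 0.000434 for Adamts9 and 0.0106 for Adamts4. The ADAMTS list had 2 genes called lower between MOSE-I and MOSE-E (median -0.30; all genes 3.61%) and 3 called higher between MOSE-L and MOSE-I (median 1.04; all genes 7.38%), of which Adamts4 (adjusted p = 0.0498) was not called there without the filter (0.0775).

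Of 12 matrix substrates of MMPs, 10 had a probe set and all 10 passed. Between MOSE-L and MOSE-E 7 were called lower (median -1.69; all genes 7.49%), between MOSE-I and MOSE-E 6 (median -1.59; all genes 3.61%) and between MOSE-L and MOSE-I 3 (median 0.07; all genes 6.04%). On the log2 scale, the collagen I gene Col1a2 fell by 6.98 (adjusted p = 2.59e-06) and the matrix glycoprotein gene Tnc fell by 4.65 (adjusted p = 0.000149). Both passed the filter only through MOSE-E and MOSE-I arrays. Without the filter the adjusted p was 2.67e-06 for Col1a2 and 0.000189 for Tnc. The basement membrane collagen gene Col4a1 changed by -3.31 (adjusted p = 0.000159) and Col1a1 by -2.54 (adjusted p = 0.00172) in MOSE-L against MOSE-E. Like Mmp2, Col1a2 had no call at MOSE-I (-0.67 against MOSE-E, adjusted p = 0.271) and fell between MOSE-I and MOSE-L (-6.32, adjusted p = 1.24e-05). Tnc and Col4a1 were called lower at MOSE-I already (-2.43, adjusted p = 0.0154, and -2.19, adjusted p = 0.00725) and again between MOSE-I and MOSE-L (-2.21, adjusted p = 0.0109, and -1.12, adjusted p = 0.038, or 0.0744 for Col4a1 without the filter). The stromal markers Acta2, Tagln and Cdh11 were also lower in MOSE-L cells and Dcn was higher, and their part in this list was not tested.

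**Figure D4:**
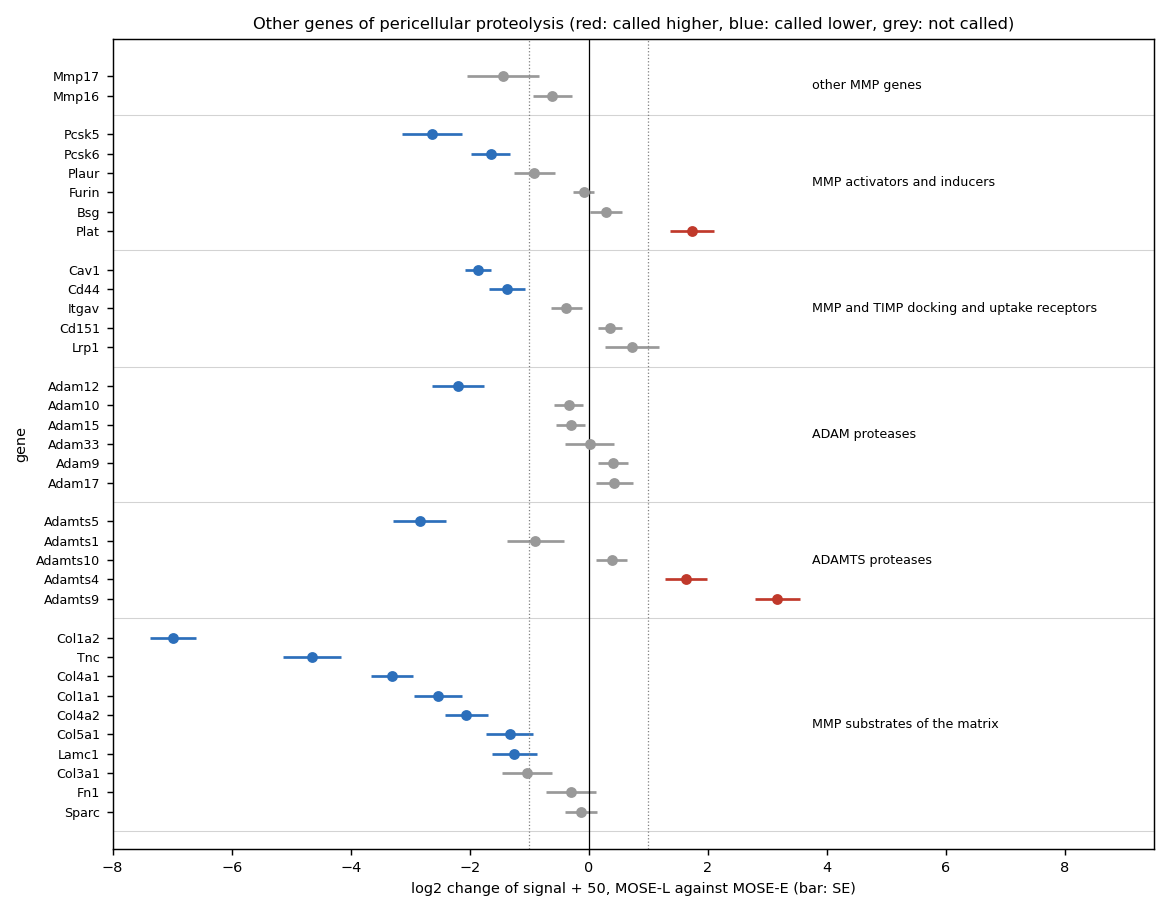
Log2 change of signal + 50 between MOSE-L and MOSE-E (points, bars are SE) for the genes of 6 lists that passed the filter. Red marks a call of higher, blue of lower and grey no call. Red points are Plat, Adamts4 and Adamts9. The points furthest to the left are the matrix substrates Col1a2 (-6.98), Tnc (-4.65) and Col4a1 (-3.31), whereas the substrates Fn1 (-0.30) and Sparc (-0.13) lie near 0.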

How the data were processed

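Total RNA from 9 MOSE cultures (3 stages, 3 arrays each, grouped by the labels) was measured on Affymetrix GeneChip whole-genome mouse arrays. The authors deposited linear MAS 5.0 intensities per probe set, scaled to a trimmed mean of 500. Such scaling assumes that most probe sets keep their level between arrays. Detection calls were not used here. Genes were named by the platform's probe table (34958 probe sets with 1 gene, 932 with several, 9211 with none). After the study's methods, only probe sets with a highest signal over 500 entered, without the 64 Affymetrix controls. Log2 of the signal plus 50 was fitted in limma 3.58.1 (R 4.3.3) with 1 mean per stage and variances that follow the mean signal, with Benjamini-Hochberg adjustment over all tested probe sets. The procedure was checked on simulated data.

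Named in the text were all member probe sets, up to 4 called genes of each list, ranked by their absolute MOSE-L against MOSE-E change (or, with none called, the gene of highest mean signal), and the 3 genes most like each called member. Beyond this rule the markers, the neighbours on chromosome 9 and the synapsin genes were named for context. The members and lists were chosen with earlier results of these data known. Tried as alternatives were adding 1 or 200 in place of 50, centring arrays on their medians, quantile normalization, a filter on the highest group mean, no filter, no variance trend, only the stages compared, the replicate number as a block, the methods' t-test, and leaving out each array. List genes without a probe set of their own were not analysed here. Promoters came from RefSeq (GRCm38.p6), and motifs were matched on both strands. Proteins were not analysed here.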

Additional observations from a re-analysis of the deposited data

How the results depend on the processing

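No called change of a member turned its sign under any alternative run, whereas uncalled changes of Timp2 near 0 and that of Mmp13 between MOSE-L and MOSE-I did (from 0.44 to -0.95 without MOSE-L replicate 3). Each member gene was followed here by its probe set of highest mean signal. Over member genes and alternatives, 448 values kept their side of the threshold, 24 lost and 5 gained a call. The 448 include values that stayed uncalled, so they overstate how often a call held. With the methods' t-test on linear signals after Benjamini-Hochberg adjustment, the member probe sets called were 0 higher and 2 lower (both Mmp2) between MOSE-L and MOSE-E, 0 lower between MOSE-I and MOSE-E, and 0 higher and 0 lower between MOSE-L and MOSE-I, beside 147 higher and 267 lower, 10 lower, and 3 higher and 7 lower over all probe sets, where limma called 1056 and 1021, 520, and 1115 and 810. Without adjustment it called 1 and 7, 3, and 1 and 3 member probe sets, beside 850 and 967, 681, and 745 and 732 over all. Fitting only the stages compared called 1 member probe set higher between MOSE-I and MOSE-E (Mmp3), beside 367 over all. Between MOSE-L and MOSE-I, quantile normalization called 2 higher (Mmp11 and Timp2 1454677_at), beside 997 over all. Median centring called 5 lower there, beside 1310 over all. Leaving out each array in turn gave between 6 and 10 called lower between MOSE-L and MOSE-E, with 6 without MOSE-E replicate 2, MOSE-E replicate 3 or MOSE-L replicate 1, and 3 to 5 between MOSE-L and MOSE-I, with 5 without MOSE-I replicate 2 or MOSE-L replicate 3. Between MOSE-I and MOSE-E the lowest was 3 and the highest 4 (Timp3 1419088_at added without MOSE-E replicate 1), and the counts of 1 higher did not move. Between MOSE-L and MOSE-E the lower calls over all probe sets, 1021 in the main fit, also fell when a MOSE-E array was dropped. They were 738 with MOSE-E replicate 2 left out and 691 with MOSE-E replicate 3 left out. Dropping MOSE-L replicate 1 raised them to 1143, unlike the member calls. Between MOSE-L and MOSE-I they fell from 810 where the member calls rose. Leaving out MOSE-I replicate 2 gave 716, and leaving out MOSE-L replicate 3 gave 485. Over all probe sets the calls between MOSE-I and MOSE-E dropped from 273 higher and 520 lower to 41 and 86 without MOSE-E replicate 3. The Timp1 call was also lost with an added 200 (-0.98), with quantile normalization (-0.99) and with only the stages compared (adjusted p = 0.052), and by the methods' t-test without adjustment. Timp3 1419089_at and 1449335_at lost theirs without a filter (adjusted p = 0.0725 and 0.0565), with only the stages compared (0.0605 and 0.0509) and by the unadjusted t-test. Without a filter 8 member probe sets were called lower between MOSE-L and MOSE-E, beside 1145 over all. With only the stages compared these counts were 7 and 882. A filter on the highest stage mean left Mmp3 untested and 2 called lower between MOSE-L and MOSE-I, beside 771 over all. With the replicate number as a block (replicate block) the member counts stayed at 1 higher and 10 lower, 0 and 3, and 1 and 3. The counts over all probe sets were then 1045 and 1027, 285 and 590, and 1175 and 821. Deviations of same-numbered arrays from their stage means correlated at -0.113 to 0.41. Differently numbered arrays were not correlated in this way, so the range cannot decide whether the numbers mark pairs. The main model did not take them as pairs. Signals near 50, as of Mmp2 in MOSE-L cells, Mmp9 and Mmp11 in MOSE-E replicate 3, limit how far a fold can be read.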
